A study of Mus musculus with 6 samples.

Results

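The genes of the receptor chains for interferons, IL-10 and IL-6 were followed in splenic B cells that were stimulated through TLR9. The 8 genes, Ifnar1, Ifnar2, Ifngr1, Ifngr2, Il10ra, Il10rb, Il6ra and Il6st, were chosen by symbol among the 23420 genes with values, and all 8 were listed and passed the filter on low values. B cells were purified with beads from the spleens of WT BALB/c mice of 7 to 11 weeks of age and cultured for 4 h, either with CpG ODN 1826, an oligodeoxynucleotide that activates TLR9, at 10 μg/mL (CpG-stimulated, n = 3) or without it (unstimulated, n = 3). Replicates 1 and 2 of each group were female and replicate 3 was male. The methods speak of 3 mice, and the labels do not say which samples share a mouse, so p values measure the spread between these samples. The comparison asks how 4 h of TLR9 stimulation alone alters the transcripts of each receptor.

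Each of these receptors is built from a pair of different chains, and most of the chains have a Janus kinase bound to their tail. IFNAR1 and IFNAR2 bind type I interferons, IFNGR1 and IFNGR2 bind IFN-γ, IL10RA and IL10RB bind IL-10, and IL6RA binds IL-6 and then joins gp130, the product of Il6st. Ligand binding brings the kinases together, and they phosphorylate STAT proteins that enter the nucleus and turn on target genes. B cells respond through these receptors with antiviral gene expression, class switching and plasma cell differentiation.

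After CpG stimulation, 7 of the 8 receptor genes fell and 1, Ifnar2, rose at an FDR under 0.05. Among all 11233 genes tested, 36.7% fell and 37.6% rose at that FDR. Il6ra, Il10ra and Il6st fell by more than 1 on the log2 scale (15.3% of all genes tested had a log2FC under -1 with that FDR and 15.8% had one over 1). The 3 CpG-stimulated values lay below the 3 unstimulated values for the 7 genes that fell and above them for Ifnar2; over all genes tested, 38.6% had groups that did not overlap with CpG lower and 39.1% with CpG higher. The median log2FC of the 8 genes was -0.95, and that of all genes tested was 0.00, with quartiles at -0.62 and 0.65. No gene of the 8 had a log2FC over 1. Values below are log2 CPM, in which a step of 1 is a doubling and a gene with 10 reads has a value of -0.76. They are mRNA levels, also where a chain is said to rise or fall. Receptor protein was not measured in these samples.

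**Figure D1:**
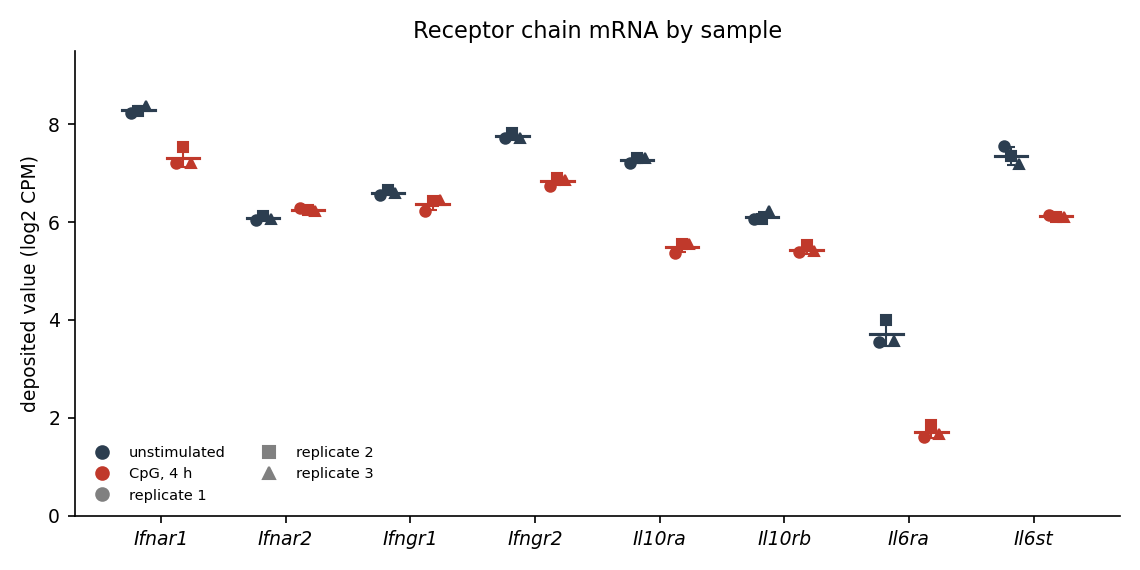
Deposited log2 CPM of the 8 receptor genes in each sample, dark for unstimulated and red for CpG-stimulated, with point shapes for replicate numbers, horizontal bars for means and vertical bars for the SD (n = 3 per group). The groups do not overlap for any of the 8 genes, and Ifnar2 is the gene with the higher CpG-stimulated values.

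The labelled cell type was checked against markers. All 7 B cell markers that were listed had more than 10 reads (median level 9.05 log2 CPM), while the 7 T cell markers and the 4 NK cell markers were each at or under the value of 3 reads in the mean over the 6 samples. The summed levels of T cell markers were 0.561 to 0.732 CPM in CpG-stimulated and 0.432 to 0.736 CPM in unstimulated samples. Those of NK cell markers were 0.729 to 1.35 and 0.128 to 0.207 CPM, and the higher sum came from Klrb1c, with values of -0.84, 0.23 and 0.23 in CpG-stimulated and -4.27, -4.79 and -4.90 in unstimulated samples. Of the 8 myeloid markers, 4 were over 10 reads in the mean over the 6 samples, with summed levels of 10.4 to 16.1 CPM in CpG-stimulated and 7.68 to 15.1 CPM in unstimulated samples. Conventional dendritic cell markers summed to 19.3 to 24.8 CPM in unstimulated and 63.8 to 69.3 CPM in CpG-stimulated samples, most of it from Zbtb46, since Itgax, Xcr1 and Clec9a were not over 10 reads in the mean. Plasmacytoid dendritic cell markers summed to 16.2 to 17.5 CPM in unstimulated and 26.5 to 31.2 CPM in CpG-stimulated samples. Most of that sum came from Bst2, with means of 3.89 in unstimulated and 4.81 in CpG-stimulated samples. Ccr9 fell (log2FC -0.94, limma FDR 0.0158), and Siglech was under the value of 3 reads in the mean. Plasma cell markers summed to 828 to 1182 CPM in unstimulated and 468 to 602 CPM in CpG-stimulated samples. Erythroid markers ran from 384 to 4912 CPM and were highest in replicate 2 of both groups. Without replicate 2 of both groups the 7 receptor genes still fell and Ifnar2 still rose; the part of other cells in these results was not tested, and in bulk samples fewer cells of a type and less RNA per cell cannot be told apart.

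The receptor for type I interferons was the receptor in which one chain fell and the other rose. Ifnar1, the chain that binds TYK2, had values of 8.22, 8.28 and 8.37 in unstimulated and 7.20, 7.53 and 7.20 in CpG-stimulated samples. The lowest unstimulated value was above the highest CpG-stimulated value, and Ifnar1 fell by 0.98 on the log2 scale (SE 0.09, limma FDR 4.94e-06), to 50.7% of the unstimulated level (95% CI 44.0 to 58.4%). Ifnar2, the chain with the higher affinity for the ligand and a partner of JAK1, had values of 6.04, 6.13 and 6.07 in unstimulated and 6.28, 6.24 and 6.22 in CpG-stimulated samples. The samples of each group lay close together without overlap, and the increase was small, with a log2FC of 0.17 (SE 0.06, limma FDR 0.0307), or 112% of the unstimulated level (95% CI 102 to 124%). This call was lost without CpG-stimulated replicate 1 or 3 or unstimulated replicate 1 or 3 in turn, and its FDR was 0.0188 to 0.0904 over the alternatives. The levels rested on the equivalent of 2819 and 5559 reads for Ifnar1 and 1350 and 1202 reads for Ifnar2, in CpG-stimulated and unstimulated samples.

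To set the sequence beside these values, the 250 bases before the gene start were taken from the RefSeq promoter table (GRCm38.p6), which held 6 of the 8 genes, and were searched on both strands for 7 motifs. These were the GC box GGGCGG, the STAT site GAS (TTCNNNGAA), the interferon response element ISRE (GAAANNGAAA), AP-1 (TGANTCA), CRE (TGACGTCA), ETS (CCGGAAGT) and the NF-kB motif. The promoters of Ifnar1 (chr16:91484965-91485214, plus strand) and Ifnar2 (chr16:91372533-91372782, plus strand) are shown 5′ to 3′ because these chains of one receptor moved in opposite directions, with capitals marking each motif match:
Ifnar1: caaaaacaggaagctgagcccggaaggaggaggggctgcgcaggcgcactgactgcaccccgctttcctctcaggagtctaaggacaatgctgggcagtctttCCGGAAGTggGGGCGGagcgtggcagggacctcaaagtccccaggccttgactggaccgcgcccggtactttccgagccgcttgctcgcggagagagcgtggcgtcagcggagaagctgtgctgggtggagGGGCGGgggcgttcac
Ifnar2: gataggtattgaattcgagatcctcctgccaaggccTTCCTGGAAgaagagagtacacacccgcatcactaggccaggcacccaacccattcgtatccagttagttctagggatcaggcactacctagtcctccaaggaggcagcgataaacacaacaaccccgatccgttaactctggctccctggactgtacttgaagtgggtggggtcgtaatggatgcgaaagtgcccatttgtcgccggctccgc
The Ifnar1 promoter held 2 GC boxes and an ETS match, and 65.6% of its bases were G or C. The Ifnar2 promoter held neither of these but had a GAS match, TTCCTGGAA, and a GC content of 54.0%. Of all 32851 promoters, 32.7% held a GC box, 7.02% a GAS match and 2.88% an ETS match; of the 10670 promoters of tested genes, the shares were 57.6%, 6.07% and 6.27%. These matches describe letters in a window, and no binding was measured.

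In the receptor for IFN-γ both chains fell, and the signalling chain fell further than the ligand-binding chain. Ifngr1, which binds the ligand, had values of 6.56, 6.66 and 6.59 in unstimulated and 6.24, 6.42 and 6.45 in CpG-stimulated samples. It fell by 0.24 on the log2 scale (SE 0.07, limma FDR 0.0141), to 84.9% of the unstimulated level (95% CI 75.8 to 95.1%). This was the smallest decrease of the 7, and it did not pass without CpG-stimulated replicate 1 (FDR 0.0511) or unstimulated replicate 2 (FDR 0.0594), with FDRs of 0.00243 to 0.0594 over the alternatives. Ifngr2, the partner of JAK2, had values of 7.71, 7.82 and 7.71 in unstimulated and 6.74, 6.91 and 6.87 in CpG-stimulated samples. The gap between its groups was wider than the spread of either, and it fell by 0.91 on the log2 scale (SE 0.07, limma FDR 9.09e-07), to 53.2% of the unstimulated level (95% CI 47.9 to 59.0%). These levels stood for 1468 and 1728 reads of Ifngr1 and 2033 and 3823 reads of Ifngr2. The Ifngr2 promoter (chr16:91546809-91547058, plus strand) is shown because it was the only 1 of the 6 with a match to NF-kB, a family of factors that TLR9 activates:
Ifngr2: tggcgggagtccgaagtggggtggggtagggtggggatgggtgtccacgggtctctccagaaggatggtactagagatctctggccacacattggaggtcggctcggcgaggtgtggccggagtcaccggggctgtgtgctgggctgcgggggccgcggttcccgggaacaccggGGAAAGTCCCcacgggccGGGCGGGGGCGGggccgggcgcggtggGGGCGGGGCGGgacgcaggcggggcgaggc
The capitals mark the NF-kB match GGAAAGTCCC, at positions -75 to -66 from the gene start, and 4 GC boxes, of which the last pair share a base. An NF-kB match was present in 3.90% of all promoters and 4.64% of those of tested genes. The Ifngr1 promoter held 2 GC boxes, the Il6st promoter 1 and the Il6ra promoter no match; ISRE, AP-1 and CRE, found in 2.98%, 6.75% and 1.55% of all promoters and 2.62%, 4.16% and 2.64% of those of tested genes, had no match in any of the 6.

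For the IL-10 receptor, the mRNA of the private chain fell further than that of the shared chain. Il10ra, the chain particular to IL-10, had values of 7.20, 7.31 and 7.30 in unstimulated and 5.38, 5.55 and 5.56 in CpG-stimulated samples. The highest CpG-stimulated value was well below the lowest unstimulated value, and Il10ra fell by 1.78 (SE 0.07, limma FDR 3.26e-08), to 29.2% of the unstimulated level (95% CI 26.1 to 32.6%). Il10rb, which also serves the receptors for IL-22 and IFN-λ, had values of 6.06, 6.05 and 6.22 in unstimulated and 5.38, 5.53 and 5.40 in CpG-stimulated samples. It fell by 0.67 (SE 0.08, limma FDR 2.00e-05), to 62.7% of the unstimulated level (95% CI 55.7 to 70.6%). The equivalents in reads were 800.5 and 2747 for Il10ra and 769.8 and 1228 for Il10rb.

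Both chains of the receptor for IL-6 fell by more than 1. Il6ra, which binds IL-6 and has no kinase of its own, was the lowest of the 8 genes, also per kilobase of exon, with values of 3.56, 3.99 and 3.57 in unstimulated and 1.62, 1.85 and 1.67 in CpG-stimulated samples. It fell by 1.99 (SE 0.16, limma FDR 1.36e-06), the largest decrease of the 8, to 25.1% of the unstimulated level (95% CI 19.7 to 32.0%). The CpG-stimulated level was worth 57.7 reads and the unstimulated level 231 reads, so Il6ra was measured with the fewest reads. Il6st, which encodes gp130 and transduces the signals of IL-6, IL-11, LIF and other cytokines, had values of 7.55, 7.34 and 7.18 in unstimulated and 6.15, 6.10 and 6.09 in CpG-stimulated samples. The unstimulated samples lay further apart than the CpG-stimulated samples without reaching them, and Il6st fell by 1.24 (SE 0.09, limma FDR 7.04e-07), to 42.3% of the unstimulated level (95% CI 36.9 to 48.5%). Myeloid cells also express Il6ra. Of the 5 myeloid markers that could be tested, Cd14 (log2FC -1.73, limma FDR 0.0043) and Csf1r (-1.61, limma FDR 0.018) fell without overlap. The CpG-stimulated values of both were all under the value of 10 reads, so they passed the filter through the unstimulated samples alone. Adgre1 rose (0.83, limma FDR 0.00811) with groups that overlapped, and Lyz2 and Itgam did not pass. The part of myeloid cells in the decrease of Il6ra was not tested.

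**Figure D2:**
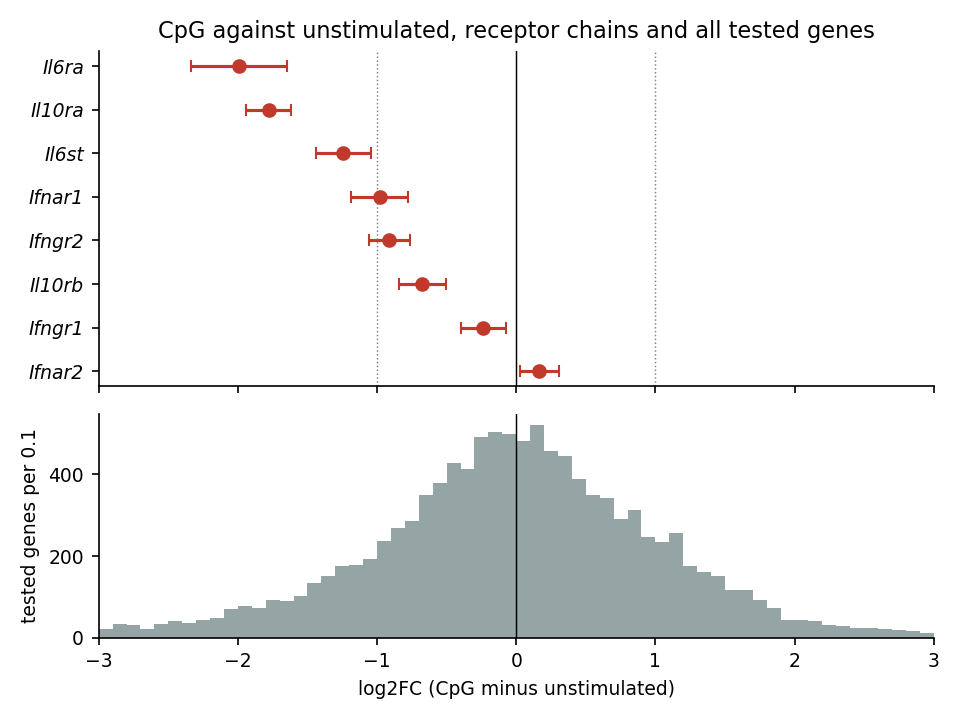
log2FC (CpG-stimulated minus unstimulated) of the 8 receptor genes with 95% confidence intervals from limma (upper panel), above a histogram of the log2FC of the genes tested, drawn from -3 to 3 (lower panel). Dotted lines mark a log2FC of -1 and 1; Il6ra, Il10ra and Il6st lie below -1, and Ifnar2 alone lies above zero.

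As each receptor needs both chains, the difference between the mRNA levels of the chains was computed within each sample, on the log2 CPM scale. The shift of this difference between groups does not depend on gene length. Ifnar1 minus Ifnar2 went from 2.18, 2.15 and 2.30 in unstimulated to 0.92, 1.29 and 0.98 in CpG-stimulated samples, a shift of -1.15 (SE 0.12). For IFN-γ the difference Ifngr1 minus Ifngr2 went from -1.15 ± 0.02 to -0.47 ± 0.04 (SD, n = 3 per group), a shift of 0.68 (SE 0.03). Il10ra minus Il10rb went from 1.14, 1.26 and 1.09 to 0.00, 0.01 and 0.16, a shift of -1.10 (SE 0.07). Il6ra minus Il6st went from -3.65 ± 0.32 to -4.40 ± 0.14 (SD, n = 3 per group), a shift of -0.75 (SE 0.20). In all 4 receptors the groups did not overlap. Of all single genes tested, 38.6% had groups that did not overlap with CpG lower and 39.1% with CpG higher. Such a share was not computed for differences between genes. The exact permutation test (two-sided) gave p = 0.1 for each receptor and 0.1 after adjustment over the 4. This is the smallest p that 3 against 3 samples allow, so the test cannot reach 0.05. In the receptors for type I interferon, IFN-γ and IL-10, the chain with the higher level per kilobase before stimulation had the lower log2FC, and in the receptor for IL-6 the chain with the lower level did.

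**Figure D3:**
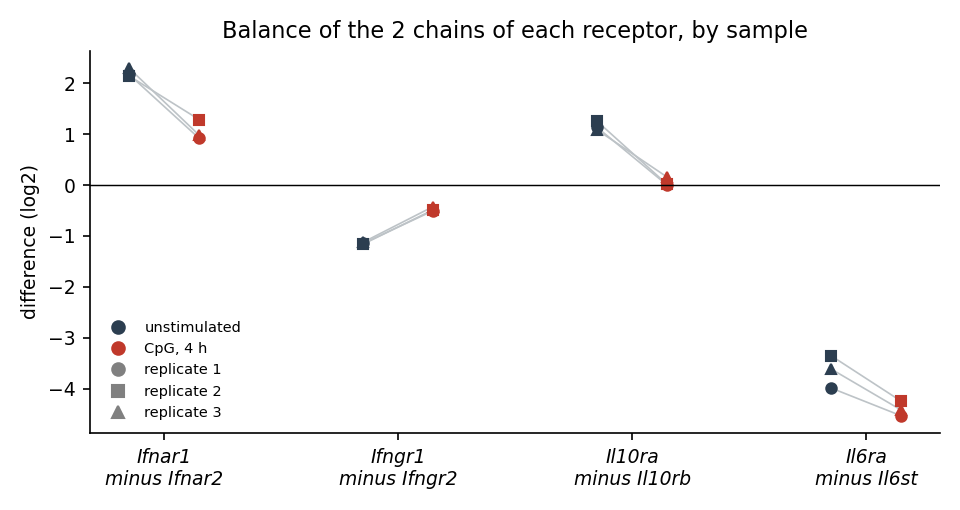
Difference in log2 CPM between the chains of each receptor in each sample, for unstimulated and CpG-stimulated B cells, with a line joining samples of the same replicate number. The groups do not overlap in any of the 4 receptors, and the difference shifts upward for Ifngr1 and Ifngr2 alone.

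Levels of different genes were compared per kilobase of exon (log2 CPM per kb, summed non-overlapping exons). In unstimulated cells the order was Ifngr2 (5.84), Ifnar1 (5.72), Il10ra (5.47), Ifngr1 (5.09), Ifnar2 (4.35), Il10rb (4.18), Il6st (3.88) and Il6ra (0.59), and no neighbours in it overlapped. In CpG-stimulated cells it was Ifngr2 (4.92), Ifngr1 (4.86), Ifnar1 (4.74), Ifnar2 (4.51), Il10ra (3.69), Il10rb (3.51), Il6st (2.64) and Il6ra (-1.40). Ifngr2 and Ifngr1, Ifngr1 and Ifnar1, and Il10ra and Il10rb overlapped there. Il10ra thus left the upper 4 genes and Ifnar2 entered them. With the longest transcript as the length, 2 of the 8 genes kept their place in the unstimulated order, but the sets of the upper 4 genes were the same in each group and Il6st and Il6ra stayed the lowest.

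**Figure D4:**
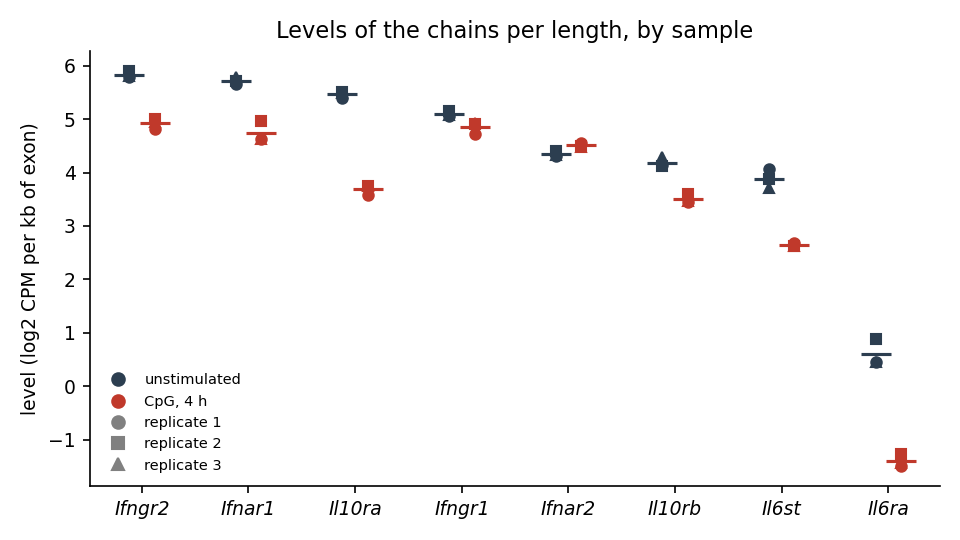
Level of each receptor gene per kilobase of exon (log2 CPM per kb) in unstimulated and CpG-stimulated samples, dark and red, with point shapes for replicate numbers and bars for means (n = 3 per group). Il10ra drops from 5.47 to 3.69, below Ifnar2, which goes from 4.35 to 4.51.

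4 of the genes lie in a row on chromosome 16, in the order Ifnar2, Il10rb, Ifnar1 and Ifngr2, all on the plus strand and within 193 kb (GENCODE M21, GRCm38). Ifnar2 (ENSMUSG00000022971.18) spans chr16:91372783-91405589, Il10rb (ENSMUSG00000022969.13) chr16:91406164-91425834, Ifnar1 (ENSMUSG00000022967.13) chr16:91485238-91507441 and Ifngr2 (ENSMUSG00000022965.8) chr16:91547072-91565623. Along this stretch the log2FC went from 0.17 to -0.67, -0.98 and -0.91. The annotation also has Gm21970 on the same strand, which covers parts of Ifnar2 and Il10rb, and how the authors counted reads that fall in both was not given in the sources used here; the values of Ifnar2 and Il10rb are uncertain in that respect. The other 4 genes are apart from them and from one another: Ifngr1 (ENSMUSG00000020009.13) at chr10:19591949-19610229 on the plus strand, Il10ra (ENSMUSG00000032089.16) at chr9:45253837-45269149 on the minus strand, Il6ra (ENSMUSG00000027947.11) at chr3:89864059-89913196 on the minus strand and Il6st (ENSMUSG00000021756.12) at chr13:112464070-112510086 on the plus strand. Gm42809, on the opposite strand, overlaps 281 bases of Il6ra and was also not among the genes with values. The strand setting of the counting was not stated.

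Of 18 other chains from the same receptor families, 7 could be tested, of which 3 rose, 2 fell and 2 did not pass (median log2FC -0.09). Over all genes tested, 37.6% rose and 36.7% fell at that FDR, and the counts of each list stand beside these shares. Ifnlr1, the IFN-λ receptor chain that pairs with IL10RB, was the gene furthest from the 8. It had values of 1.38, 1.84 and 1.40 in unstimulated and 5.57, 5.54 and 5.47 in CpG-stimulated samples, and rose by 3.99 (SE 0.14, limma FDR 1.64e-08), while its partner chain Il10rb fell. Lifr, a partner of gp130 for LIF, fell by 2.19 (SE 0.41, limma FDR 0.000768), and Il20rb, a chain for IL-20 family cytokines, rose by 1.45 (SE 0.29, limma FDR 0.00116). Lifr passed the filter through the unstimulated samples alone, and its CpG-stimulated values of -2.05, -1.46 and -0.97 were under the value of 10 reads; on the log2(CPM + 1) scale the log2FC was -0.95 for Lifr and 0.78 for Il20rb. A list of common γ chain cytokine receptors with related chains, Il13ra1 and Crlf2, gave 3 that rose, 4 that fell and 3 that did not pass out of 10 (median -0.14). The extremes of this list were Il2ra (log2FC 3.47), Il15ra (2.94) and Il13ra1 (-2.22), each past the FDR. Il13ra1 had CpG-stimulated values of -1.18, -0.78 and -0.55, near or under the value of 10 reads. In this list 2 rather than 4 fell without CpG-stimulated replicate 1 or 3 or unstimulated replicate 2.

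Few ligand genes of the receptors and of the other chains of their families had reads in these cultures. Of 35 ligand genes, 28 were not tested and 23 were at or under the value of 3 reads in all 6 samples; among them were 19 of the 21 interferon genes. Ifnb1 had values of -4.05, -3.29 and -5.04 in unstimulated and -3.96, -1.63 and -0.81 in CpG-stimulated samples, and Ifng -2.96, -0.59 and -0.34 against -3.13, -2.17 and -4.53, all near or under the value of 10 reads. All 7 that were tested rose, as did 37.6% of all genes tested. Of the 7, Lif was tested only because of its CpG-stimulated samples. Il6, the ligand of IL6RA, went from -2.56, 0.12 and -0.40 to 3.69, 5.23 and 4.15, a log2FC of 5.30 (SE 0.62, limma FDR 2.60e-05). Il10 went from 1.93, 2.64 and 2.33 to 4.57, 5.47 and 4.52, a log2FC of 2.56 (SE 0.25, limma FDR 7.75e-06), while Il10ra and Il10rb fell. Ebi3, a subunit of IL-27, rose by 4.64 on the log2 scale. Il27, the gene of the other subunit, was not tested, with values under that of 3 reads in all 6 samples. Lif rose by 3.70. For genes this low the size of a log2FC depends on the offset: on the log2(CPM + 1) scale it was 1.64 for Lif and 3.73 for Il6.

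Of the 7 kinases and STAT proteins next to the receptors, 5 fell and 2 rose (median log2FC -0.82). The shares over all genes tested were 36.7% that fell and 37.6% that rose, here and for the next list. Stat2, which acts after type I interferon, fell by 1.01 (SE 0.13, limma FDR 4.36e-05), and Tyk2 fell by 0.88 (SE 0.11, limma FDR 4.34e-05). Tyk2 is the kinase of IFNAR1 and IL10RB. The count that rose was 1 without CpG-stimulated replicate 3 or unstimulated replicate 1 or 3. The count that fell was 4 to 5 over the alternatives. Among 13 genes that restrain the pathway or remove the receptors, 7 rose, 5 fell and 1 did not pass (median 0.27). Socs3, an inhibitor that binds gp130, rose by 2.73 (SE 0.19, limma FDR 5.57e-07), and Socs1, an inhibitor of Janus kinases, rose by 1.72 (SE 0.17, limma FDR 6.89e-06). Pias3, an inhibitor of STAT3, fell by 1.40 (SE 0.16, limma FDR 1.79e-05).

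Target genes were counted in 3 lists that share some genes with the lists above. Beside each count stand the shares over all genes tested, 37.6% that rose and 36.7% that fell. Of the 19 type I interferon targets tested, 10 rose, 2 fell and 7 did not pass (median log2FC 0.96), with Isg15 (2.29), Oasl1 (2.08) and Ifi44 (2.03) at the top, all antiviral genes. Of the 14 IFN-γ targets tested, 8 rose, 2 fell and 4 did not pass (median 0.47), and 5 fell with the replicate number as a block. Gbp6 (log2FC 2.19, limma FDR 0.0217) and Cxcl10 (1.64, limma FDR 0.0267) had groups that overlapped, and their calls were lost in 7 and 5 of 13 alternatives; Socs1 (1.72) is also in this list. Of the 11 STAT3 targets, 8 rose, 2 fell and 1 did not pass (median 0.67), led by Batf (5.03), a transcription factor, Bcl2l1 (3.91), which protects cells from apoptosis, and Socs3. The count that fell was 1 for type I targets without CpG-stimulated replicate 1 or 3 or unstimulated replicate 2 or 3, and 1 for STAT3 targets without any of these or unstimulated replicate 1. These genes also answer to other signals, NF-kB among them, and the part of each receptor was not tested.

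**Figure D5:**
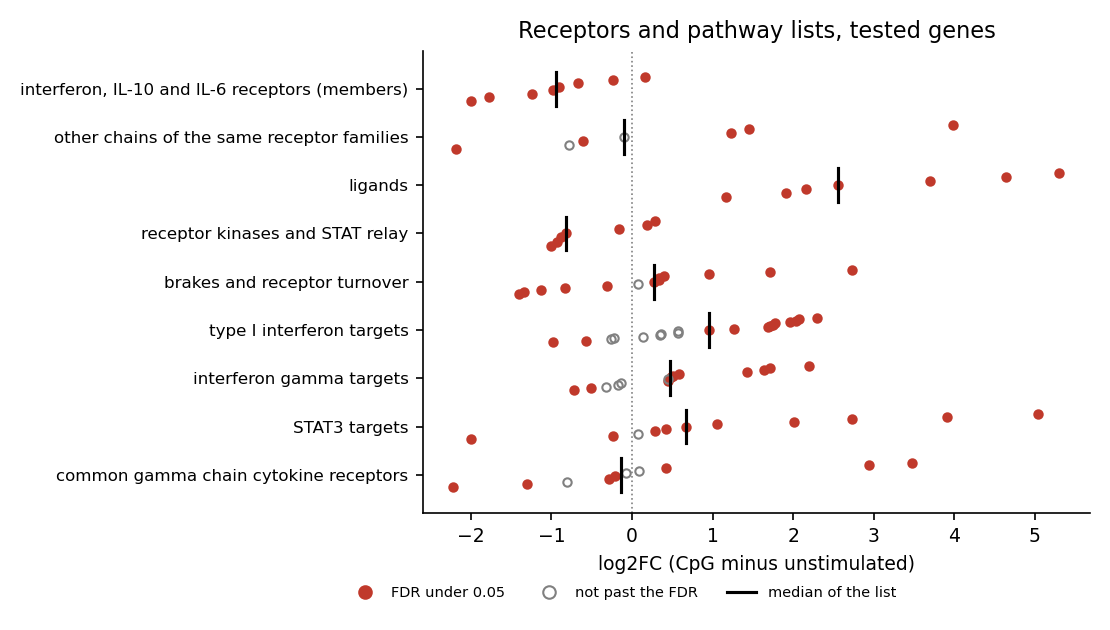
log2FC (CpG-stimulated minus unstimulated) of every tested gene in each list, with filled points for an FDR under 0.05 and a bar for the list's median. The 8 receptor genes have a median of -0.95, the kinases and STAT relay -0.82, and the ligands that could be tested 2.56.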

How the data were processed

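RNA-seq of B cells from WT BALB/c mice, 3 CpG-stimulated and 3 unstimulated samples, was used; groups and replicate numbers came from the sample labels. The authors made stranded mRNA libraries, trimmed reads with Trim Galore 0.6.5, aligned them to mm10 with STAR 2.6.1a, counted genes with featureCounts (Subread 2.0.1), and applied quantile normalization and voom. The values the authors deposited are log2 CPM, not counts. Their lowest common value, -5.15, was taken as that of a gene without reads (0.5 reads added), which gives a library size of 17.8 M reads and the values of 10 and 3 reads; these cover counting error only. Quantile normalization hides differences in depth and in total RNA per cell.

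CpG-stimulated and unstimulated samples were tested in R 4.3.3 by limma 3.58.1, with a trend in eBayes, on the deposited log2 CPM of 11233 genes above the value of 10 reads in at least 3 samples, with Benjamini-Hochberg adjustment (FDR) over all of them. The code was tested on simulated data. Members and gene lists were chosen with earlier results of these data known. All 8 receptor genes were named in full. Of each other list, the 3 tested genes with the largest absolute log2FC past the FDR were named, with Ifnb1, Ifng, Il10 and Il6 whatever their values. One gene that this rule names is not reported here. Symbols of the lists were matched through the RefSeq gene table; gene positions are from GENCODE M21, while the annotation the authors counted on was not given in the sources used here. Deviations of samples with the same replicate number correlated at 0.435, 0.224 and 0.300, and those of other pairs at -0.281 to 0.0279. Numbers were therefore taken to pair samples in the replicate block and in the sign-flip test. The main fit had no term for the number, so its SEs, confidence intervals and FDRs are unpaired. In 1481 genes both samples of each number had equal values (within 0.0005) that differed between numbers, so part of that correlation comes from a shift by number in the deposited values. Alternatives were other filters, the replicate block, log2(CPM + 1), other variance models, centring on the median, longest transcripts, and leaving out samples.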

Additional observations from a re-analysis of the deposited data

How the results depend on the processing

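No result reversed under any alternative. The decreases of Ifnar1, Ifngr2, Il10ra, Il10rb, Il6ra and Il6st passed the FDR in all 14 alternatives. Leaving out single samples gave a log2FC of 0.15 to 0.19 for Ifnar2, whose call was lost without CpG-stimulated replicate 1 or 3 or unstimulated replicate 1 or 3, so that 0 to 1 receptor genes rose. It gave -0.27 to -0.17 for Ifngr1, whose call was lost without CpG-stimulated replicate 1 or unstimulated replicate 2. With the longest transcript as the length, 2 of 8 genes kept their place in the unstimulated order. With the replicate block, limma called the 7 decreases (FDR 0.00243 for Ifngr1) and Ifnar2 (FDR 0.0188). The paired exact sign-flip test of the chain differences gave p = 0.25, the smallest that 3 pairs allow. The block changed no call of the 8 genes. On the log2(CPM + 1) scale Il6ra had a log2FC of -1.72 and the shift of Il6ra minus Il6st was -0.49; of the low genes named besides the receptors, Il13ra1 had -1.21, Ifi44 1.31, Gbp6 0.73 and Cxcl10 0.66. A fit without replicate 2 of both groups, where erythroid RNA was highest, was added after seeing the data, and gave -1.09 for Ifnar1 and -1.92 for Il6ra. The count of genes past log2FC 1 ran from 1331 on the log2(CPM + 1) scale to 2005 without a filter for increases, and from 1351 to 1989 for decreases. With values that are already normalized, no count model or other scaling of counts could be run. Il6ra, at the worth of 57.7 reads after stimulation, was the receptor gene most limited by depth.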

Other observations

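Around the receptor genes of chromosome 16, 16 further protein-coding genes with values lay within 500 kb, of which 12 could be tested. Of these, 5 rose, 5 fell and 2 did not pass (median log2FC 0.21), while 37.6% of all genes tested rose and 36.7% fell. Tmem50b, the nearest tested gene after Ifngr2, fell by 1.17 (SE 0.09, limma FDR 9.01e-07), and Paxbp1, the nearest tested gene before Ifnar2, rose by 0.20 (SE 0.08, limma FDR 0.0360).

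The genes most like Ifnar2 across the 6 samples, by the root mean square distance of values centred on each gene's mean, were Thg1l (0.0159), Tmpo (0.0252) and Srsf9 (0.0254), on the log2 scale. Those most like Il6ra were Evi5l (0.0931), Tbc1d30 (0.0995) and Tmem66 (0.113), with log2FCs of -1.93, -2.02 and -1.92.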
